A study of Mus musculus with 11 samples.

Results

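Fa2h and 9 enzymes of sphingolipid synthesis were followed in the adrenal glands of orchiectomised (ORX) and intact male mice. The 10 genes, Fa2h, Cers2, Cers4, Cers5, Cers6, Degs1, Degs2, Ugcg, Sptlc2 and Ugt8a, were taken by symbol from a table of read counts for 23337 gene symbols. All 10 were found, the 4 ceramide synthases under their older symbols Lass2, Lass4, Lass5 and Lass6. They were selected on the measured ORX against INTACT contrast of these same libraries, as enzymes of the pathway that Fa2h belongs to, so their differences between the groups are given as a description and no test is built on them. The ORX group had 6 samples from mice whose testes had been removed, and the INTACT group had 5 samples from mice that kept them. All mice were males of the strain Hsd:Athymic Nude-Foxn1nu, which lacks a thymus and thus mature T cells. All had received VCaP cells, a human prostate cancer line, at study week 0, when they were about 5 to 6 weeks old. They were assigned to groups at week 7 and killed at week 15, so both groups carried the human cells. The labels do not say whether each sample came from its own mouse, and no tumour size was used here.

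Sphingolipid synthesis begins on the endoplasmic reticulum, where serine palmitoyltransferase joins serine to a fatty acyl-CoA. The product is reduced, ceramide synthases attach a further fatty acid whose length depends on the synthase, and a desaturase turns the resulting dihydroceramide into ceramide. FA2H, the fatty acid 2-hydroxylase, adds a hydroxyl group to the fatty acid that is built into ceramide, and the hydroxylated lipids are best known from myelin and skin. Ceramide is then given a phosphocholine, glucose or galactose head group. In steroid-producing cells, ceramide, sphingosine and sphingosine-1-phosphate are known as regulators of steroidogenic gene transcription, and sphingosine was described in human adrenocortical cells as a ligand of SF-1 (Nr5a1), the master transcription factor of the adrenal cortex.

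Libraries held 11368447 to 15029582 counts. Over all 14139 genes that passed the filter on low counts, 878 were called at an adjusted p under 0.05 (edgeR's quasi-likelihood test, two-sided, Benjamini-Hochberg adjustment), which is 6.21% of those tested. The call was higher in ORX for 3.03% and lower for 3.18% of the tested genes. ORX 6 stood apart from its group. Relative to the other ORX libraries, genes in its shortest decile of transcript length had a median log2 deviation of 0.72 and those in its longest decile one of -0.68. In the other 10 libraries the gap between these deciles was at most 0.52 either way. INTACT 3 had the lowest summed level of cortex markers, 35680 CPM (counts per 1000000 TMM-scaled counts), where INTACT 1, 2, 4 and 5 held 50531 to 80281 CPM, and its fat markers summed highest. ORX 3 was likewise the lowest of ORX for summed cortex markers, at 62448 CPM, where the other ORX libraries held 71670 to 95633 CPM. Its fat markers summed highest of ORX, at 16109 CPM. Calls of sphingolipid genes that change without ORX 6, INTACT 3 or both are given with and without them. Those that change without ORX 3 are also given.

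Of the 10 genes, 8 passed the filter and 2, Degs2 and Ugt8a, had too few reads in either group. Fa2h and Sptlc2 were called higher in ORX, Ugcg was called lower, and Cers2, Cers4, Cers5, Cers6 and Degs1 did not pass. The 3 calls among 8 genes stand beside 6.21% over all genes, and since the contrast was known when the genes were picked, nothing is read from that share. The median log2 fold change of the 8 genes was 0.11, and that of all tested genes was 0.01. In Fa2h every ORX library lay above every INTACT library and in Ugcg every one lay below, a separation seen for 5.28% of all tested genes (2.92% higher and 2.36% lower). Without ORX 5, INTACT 1 or INTACT 2, only Fa2h of the 10 genes was called. The glands are bulk tissue, in which fewer cells of a type and less RNA per cell cannot be told apart.

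**Figure D1:**
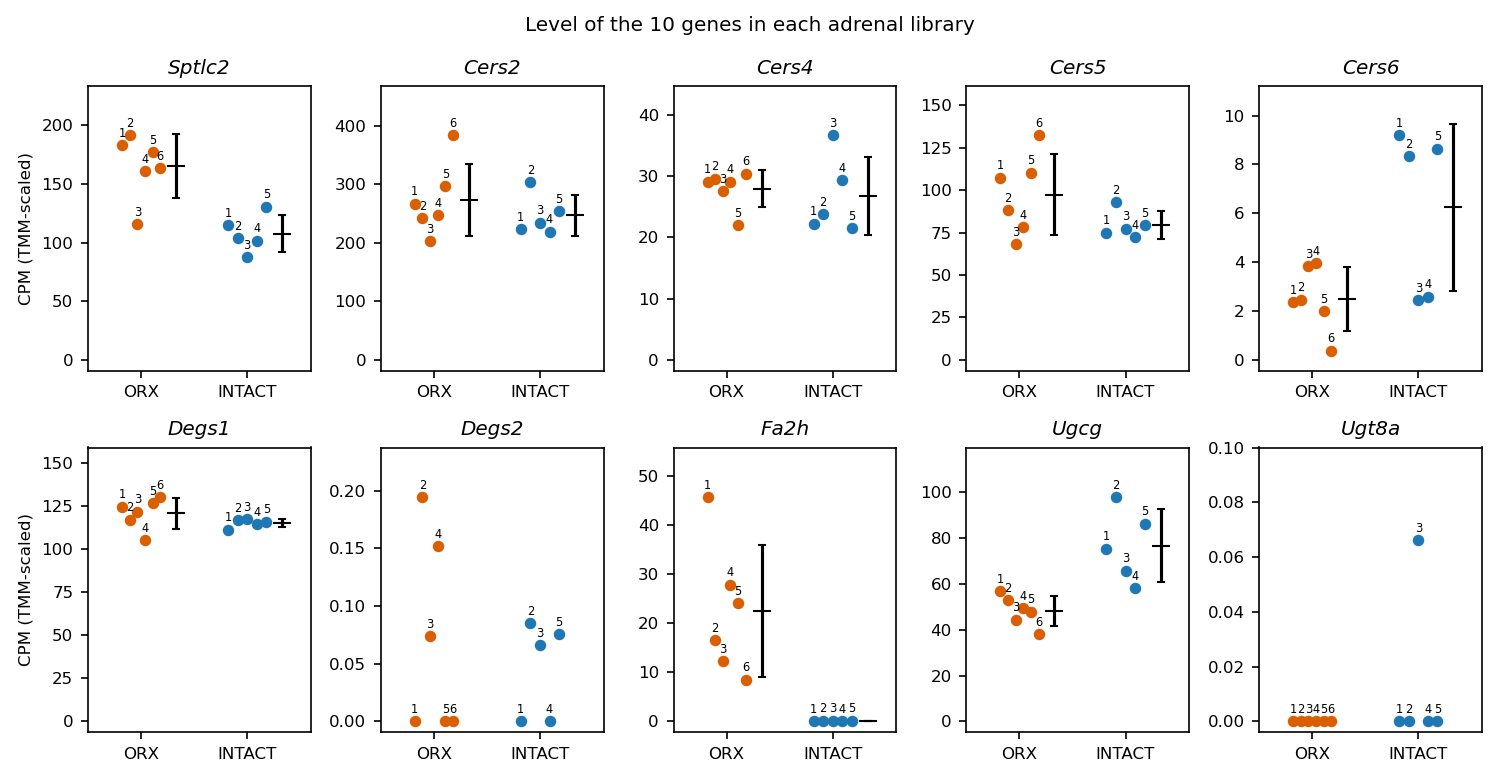
Level of each of the 10 genes (vertical axes, CPM on the TMM scale, each from 0) in the 6 ORX (orange) and 5 INTACT (blue) libraries, with the sample number beside each point and the mean and SD as a bar; Degs2 and Ugt8a, with 9 counts and 1 count in all, have no bar. Fa2h lies between 8.52 and 45.8 CPM in ORX and at or below 0.17 CPM in INTACT, Ugcg separates the groups downwards, and Cers6 is low in INTACT 3 and INTACT 4.

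Sptlc2 encodes a catalytic subunit of serine palmitoyltransferase, the enzyme of the first and rate-limiting step. It lies on chromosome 12 (87305058 to 87388355, minus strand, GRCm38). In ORX it ranged from 116 CPM in ORX 3 to 191 CPM in ORX 2, with a median of 170.2 CPM. In INTACT it was at 115, 104, 87.8, 102 and 131 CPM in samples 1 to 5. The ranges overlapped only through ORX 3, which lay below INTACT 5. Means of 165 ± 27.0 CPM in ORX and 108 ± 16.0 CPM in INTACT (SD, n = 6 and 5) gave 0.62 ± 0.15 (SE) as the log2 fold change. The call of Sptlc2 ended without ORX 1, 2, 4 or 5 or INTACT 1, 2, 3 or 4, with log2 fold changes of 0.54 to 0.64 in those fits. It also ended without INTACT 3 and ORX 6 together, at 0.55.

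Its partner genes at the start of the pathway did not pass with all libraries in. Sptlc1, the partner subunit, averaged 86.1 ± 16.7 CPM in ORX and 64.2 ± 5.51 CPM in INTACT, a log2 fold change of 0.42 ± 0.15 (edgeR adjusted p = 0.111). Without ORX 3 alone Sptlc1 was called, at 0.50 (edgeR adjusted p = 0.0374). Sptssa, a small activating subunit, was at 0.73 ± 0.29 (edgeR adjusted p = 0.151). Kdsr, the reductase of the next step, was at 0.40 ± 0.25 (edgeR adjusted p = 0.36). The alternative subunit genes were low or silent, Sptlc3 with 9 counts in all of ORX and 17 in all of INTACT, and Sptssb with no count in any library. Ormdl1, Ormdl2 and Ormdl3 encode proteins that restrain the enzyme. Their log2 fold changes were -0.08, 0.06 and -0.31, and none passed.

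Because Sptlc2 was called and Cers6 had the lowest log2 fold change of the 8 tested genes, the 250 bases before the start site of each are shown, from RefSeq promoters on GRCm38.p6, written 5′ to 3′ on the gene's strand. Capitals mark GC boxes, the motif GGGCGG in either direction, which the general factor Sp1 binds.
Sptlc2, chr12:87388356-87388605, minus strand: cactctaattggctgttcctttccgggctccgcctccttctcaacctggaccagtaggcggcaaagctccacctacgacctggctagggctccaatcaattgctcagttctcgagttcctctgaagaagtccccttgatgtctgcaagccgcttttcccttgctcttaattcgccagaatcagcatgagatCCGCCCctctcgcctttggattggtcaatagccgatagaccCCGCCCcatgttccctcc
Cers6, chr2:68861191-68861440, plus strand: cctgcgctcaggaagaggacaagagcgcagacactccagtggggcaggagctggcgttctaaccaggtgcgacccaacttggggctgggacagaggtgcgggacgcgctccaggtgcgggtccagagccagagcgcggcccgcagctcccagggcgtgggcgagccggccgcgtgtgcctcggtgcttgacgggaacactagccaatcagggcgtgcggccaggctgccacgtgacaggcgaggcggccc
The Sptlc2 window holds 2 GC boxes and 55.2% G and C, and the Cers6 window holds none and 70.4%. The window of Ugcg, called lower, also holds 2 GC boxes, and that of Degs1, which did not pass, holds none. Whether the boxes have a part in the direction of change was not tested. RefSeq promoters were found for 9 of the 10 genes, in 10 windows, of which 2 belong to Cers2. The gene without a window is Fa2h, so the motif counts below do not cover it. GGGCGG was present in 7 of these windows and in 32.7% of all 32851 windows of the same length. The SF-1 core AAGGTCA was in 0 of the 10 windows and in 4.08% of all windows. The core TGTTCT of androgen and glucocorticoid receptor sites was in 0 of the 10 windows and in 16.1% of all. The E-box TCACGTGA and the cyclic AMP element TGACGTCA, each its own reverse complement, were in 0 of the 10 windows and in 0.785% and 1.55% of all. Both strands were searched, and none of the 5 motifs lies within another. These counts say only which letters are in these windows.

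Ceramide synthases differ in the fatty acid they attach. Cers2, which uses very long fatty acids, was the most abundant of them. It ranged from 203 to 384 CPM in ORX (median 257) and was at 224, 304, 235, 219 and 254 CPM in INTACT 1 to 5. The groups overlapped throughout, with a log2 fold change of 0.15 ± 0.17 (SE). Cers5, which uses palmitoyl-length fatty acids, ranged from 68.0 to 132 CPM in ORX (median 97.8) and was at 74.9, 93.0, 77.4, 72.1 and 79.4 CPM in INTACT 1 to 5. Its log2 fold change was 0.29 ± 0.17 and the groups overlapped. ORX 6 was the highest library for Cers2 and Cers5, whose longest transcripts are 2216 and 2775 bases. Without ORX 6 their log2 fold changes were 0.03 and 0.19. The part of transcript length in these values was not tested.

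Cers4, which makes ceramides of intermediate length, ranged from 22.0 to 30.4 CPM in ORX (median 29.1) and was at 22.2, 23.8, 36.6, 29.4 and 21.4 CPM in INTACT 1 to 5, a log2 fold change of 0.07 ± 0.16. INTACT 3 was its highest library. Leaving out INTACT 5 turned this value to -0.00452 on the log2 scale, so that no direction is given for Cers4.

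Cers6, another synthase for palmitoyl-length fatty acids, was at 2.37, 2.47, 3.83, 3.96, 2.0 and 0.377 CPM in ORX 1 to 6. In INTACT 1 to 5 it was at 9.19, 8.33, 2.45, 2.59 and 8.64 CPM. INTACT 1, 2 and 5 thus lay above every ORX library, whereas INTACT 3 and INTACT 4 lay inside the ORX range. The means were 2.50 ± 1.32 CPM in ORX and 6.24 ± 3.41 CPM in INTACT, a log2 fold change of -1.31 ± 0.49 that did not pass. ORX 6 held 5 counts of Cers6, whose longest transcript is 7038 bases. Without ORX 6 the log2 fold change was -1.09, without INTACT 3 it was -1.53, and Cers6 was called only without both together, at -1.31. INTACT 3 and INTACT 4 were also the lowest INTACT libraries for the summed medulla markers, at 13588 and 17483 CPM. INTACT 1, 2 and 5 held 18159 to 33047 CPM. The same split was seen for the called medulla genes Slc18a2, Ret and Npy. Slc18a2 was at 53.7 and 36.2 CPM, against 65.2 to 106 CPM in INTACT 1, 2 and 5. For the most abundant medulla genes, Chgb and Chga, INTACT 3 was again the lowest of INTACT, at 5438 and 3488 CPM. INTACT 4 was second highest of INTACT for both, at 7607 and 4461 CPM. INTACT 3 and INTACT 4 were lowest for the summed cortex markers, at 35680 and 50531 CPM. Whether either has a part in the Cers6 values was not tested.

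Set against exon length, Cers2, Cers5 and Cers4 held similar shares of the ceramide synthase mRNA in both groups. Cers2 made up 71.2 ± 1.54% of the summed level per length in ORX and 72.5 ± 1.02% in INTACT (SD, n = 6 and 5). Cers5 made up 26.2 ± 1.71% in ORX and 24.3 ± 0.595% in INTACT, and Cers4 2.27 ± 0.526% and 2.39 ± 0.700%. Cers6 was a small part throughout, 0.303 ± 0.194% in ORX and 0.751 ± 0.406% in INTACT. Cers1 had no count in any library, but it shares exon bases with Gdf1 on the same strand. How shared reads were counted is not known, so this does not show that Cers1 was silent. Cers3, the synthase of ultra-long skin ceramides, had 16 counts in all of ORX and 12 in all of INTACT. Lengths are the merged exons of GENCODE M21 and not those of the authors' counting. The merged length of Cers4, 12264 bases, is the longest of the 4, and its share depends on that choice.

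**Figure D2:**
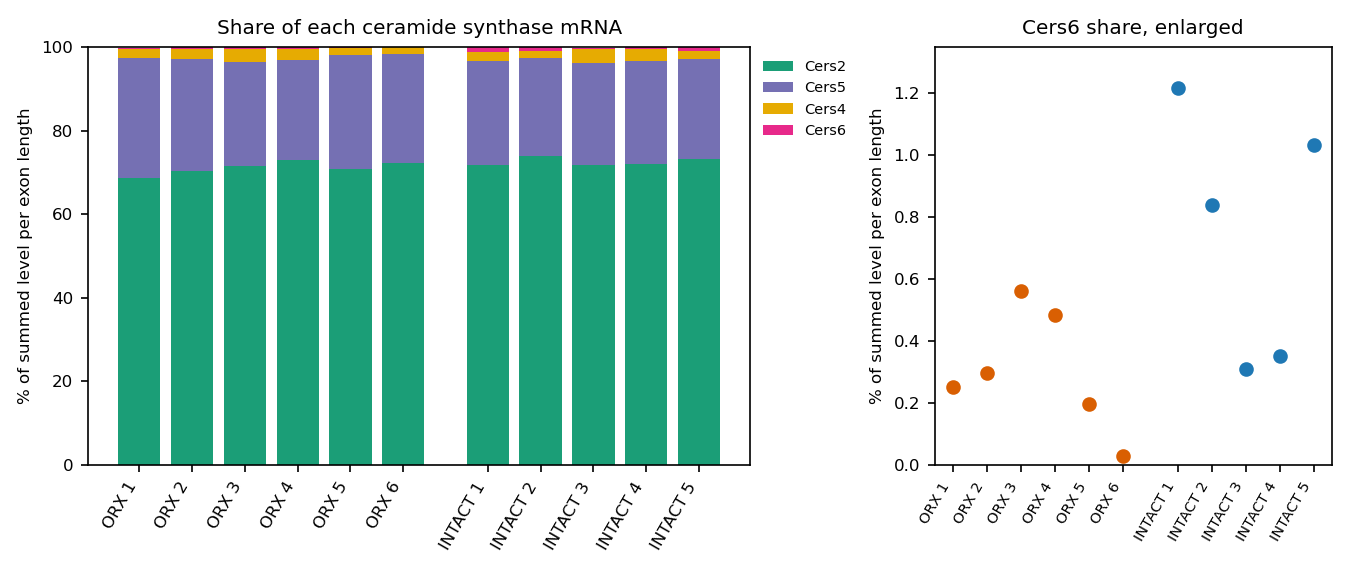
Left, share of the summed ceramide synthase level per exon length (vertical axis, %) taken by Cers2, Cers5, Cers4 and Cers6 in each library; right, the Cers6 share alone on an enlarged axis, ORX in orange and INTACT in blue. Cers2 holds 68.7% to 73.0% in the ORX libraries and 71.7% to 73.9% in the INTACT libraries, and Cers6 holds 0.0294% to 0.561% in ORX, 0.839% to 1.218% in INTACT 1, 2 and 5, and 0.31% and 0.353% in INTACT 3 and INTACT 4, inside the ORX range.

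Degs1, the desaturase that completes ceramide, was the steadiest of the 10 genes. It ranged from 105 to 130.3 CPM in ORX (median 123) and was at 111, 117, 118, 115 and 116 CPM in INTACT 1 to 5. The groups overlapped and the log2 fold change was 0.07 ± 0.10 (SE). The coefficient of variation between samples was 7.41% in ORX and 2.11% in INTACT. Degs2, which in skin, gut and kidney also hydroxylates dihydroceramide to make phytoceramides, had 6 counts in all of ORX and 3 in all of INTACT. In this bulk tissue Degs1 thus supplied nearly all desaturase reads.

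Fa2h lies on chromosome 8 (111345135 to 111393824, minus strand, GRCm38), with no exon of another annotated gene on top of its exons on either strand. It had 638, 255, 166, 367, 302 and 113 counts in ORX 1 to 6, which is 45.8, 16.6, 12.2, 27.9, 24.2 and 8.52 CPM. In INTACT 1 to 5 it had 1, 2, 2, 0 and 2 counts, at most 0.17 CPM. Every ORX library was thus far above every INTACT library, and INTACT was close to the limit of detection, since 3 counts of an INTACT library correspond to 0.2 to 0.264 CPM before scaling. Means of 22.5 ± 13.5 CPM in ORX and 0.105 ± 0.0693 CPM in INTACT (SD, n = 6 and 5) gave 7.61 ± 0.61 (SE) as the log2 fold change. The 1841 counts in ORX against 7 in INTACT gave a ratio per sequenced count of 218, with an exact 95% interval of 106 to 543 that covers counting error only. Over the 19 alternatives tried, its log2 fold change ranged from 7.26 to 7.86, which describes the values it was selected on. ORX 6 was the lowest ORX library, and the log2 fold change without it was 7.78. Among the ORX libraries the level varied widely, with a coefficient of variation of 59.9%, against 16.3% for Sptlc2 and 13.6% for Ugcg.

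The hydroxylated ceramides that Fa2h can make are used in myelin with a galactose head group, which Ugt8a attaches. Ugt8a had 0 counts in all 6 ORX libraries, which allows up to 0.0372 CPM over the group, and 1 count in all INTACT libraries. Gal3st1, which sulfates galactosylceramide to sulfatide, had 19 counts in all of ORX and 12 in all of INTACT. Galc, which removes the galactose, was at 22.1 ± 2.63 CPM in ORX and 22.7 ± 4.38 CPM in INTACT, a log2 fold change of -0.04 ± 0.16 (edgeR adjusted p = 0.907).

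Ugcg attaches glucose to ceramide and so begins the glycosphingolipids other than the galactose series. It lies on chromosome 4 (59189257 to 59222833, plus strand, GRCm38). In ORX 1 to 6 it was at 56.8, 53.1, 44.5, 49.5, 47.9 and 38.1 CPM. In INTACT 1 to 5 it was at 75.5, 98.0, 65.8, 58.2 and 86.4 CPM. The groups did not overlap, although INTACT 4 lay close to ORX 1. The means were 48.3 ± 6.57 CPM in ORX and 76.8 ± 15.9 CPM in INTACT, a log2 fold change of -0.67 ± 0.15 (SE). The call of Ugcg ended without ORX 5, INTACT 1, INTACT 2 or INTACT 5, where the log2 fold change was -0.67, -0.68, -0.57 and -0.62. Without ORX 6, the lowest library, it remained.

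The genes of the next step also fell. B4galt5 and B4galt6 encode the enzymes that add galactose to glucosylceramide and so make lactosylceramide, the parent of gangliosides and globosides. B4galt5 was at 76.5, 90.5, 111, 93.5, 75.2 and 110.3 CPM in ORX 1 to 6, and at 236, 295, 101, 148 and 150.4 CPM in INTACT 1 to 5. INTACT 3 lay inside the ORX range and the other INTACT libraries above it. The log2 fold change was -1.0 ± 0.24 (edgeR adjusted p = 0.0282). B4galt6 was at 13.8, 16.7, 23.6, 18, 16.4 and 16.1 CPM in ORX 1 to 6, and at 40.9, 46.7, 23.2, 20.9 and 41.8 CPM in INTACT 1 to 5. As for Cers6, INTACT 3 and INTACT 4 were the low libraries of their group, and both overlapped with ORX 3. The log2 fold change was -0.99 ± 0.22 (edgeR adjusted p = 0.0211). The call of B4galt5 ended without ORX 1, 2, 4 or 5 or INTACT 1 or 2 (log2 -1.02 to -0.77, edgeR adjusted p up to 0.0747). That of B4galt6 ended without ORX 1, 2 or 5 or INTACT 1, 2 or 5 (log2 -0.99 to -0.86, edgeR adjusted p up to 0.0632).

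**Figure D3:**
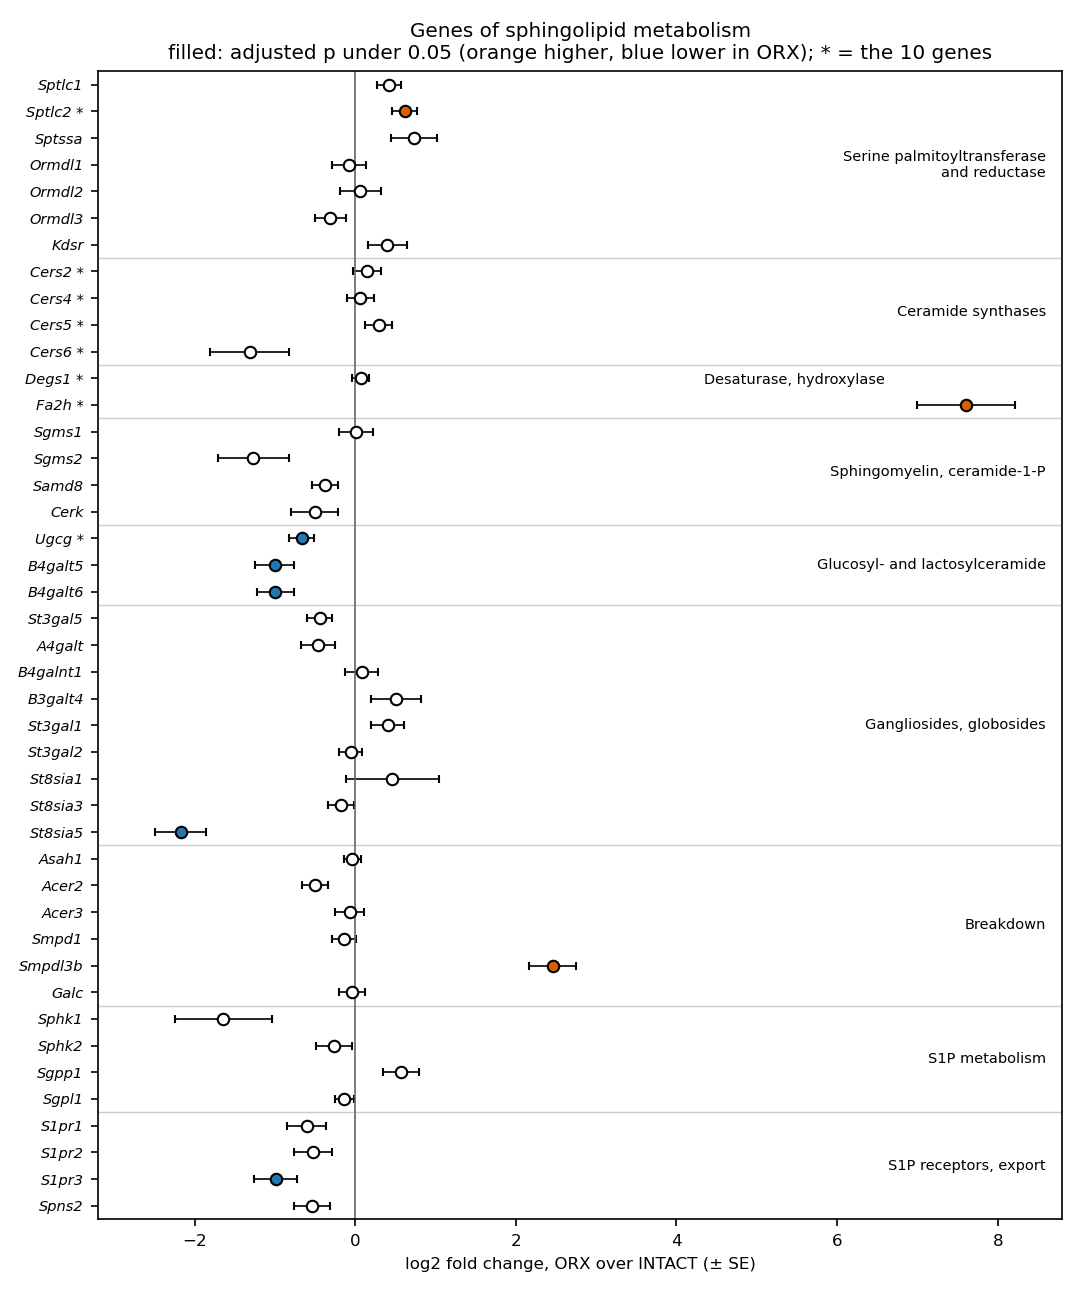
Log2 fold change, ORX over INTACT, with its SE (horizontal axis) for genes that passed the filter on low counts, ordered by their step in sphingolipid metabolism; orange circles passed as higher and blue circles as lower in ORX, open circles did not pass, and * marks genes among the 10. Fa2h lies at 7.61, Smpdl3b at 2.46, and Ugcg, B4galt5 and B4galt6 lie together between -1.0 and -0.67.

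Around the 10 genes, 93 further genes of sphingolipid metabolism were listed, of which 86 passed the filter. Of these, 1 rose, 4 fell and 81 did not pass, so that 5.81% were called, beside 6.21% over all genes. Their median log2 fold change was -0.09. The number called was 2 without ORX 1, 2 or 5 or INTACT 1 or 2, 3 without ORX 4 or INTACT 5, and 9 without ORX 3. Acer2, Aldh3a2, S1pr1, Spns2 and Sptlc1 were called without ORX 3 and not with all libraries in. Their log2 fold changes without ORX 3 were -0.63, 0.46, -0.84, -0.72 and 0.50 (edgeR adjusted p 0.0107 to 0.0432). Of the 15 tested genes of ceramide and sphingolipid synthesis, B4galt5 and B4galt6 were the only ones called. Sgms2, a sphingomyelin synthase, averaged 6.83 ± 3.05 CPM in ORX and 16.5 ± 12.1 CPM in INTACT (log2 -1.27 ± 0.44, edgeR adjusted p = 0.108). Sgms2 was called without INTACT 3, at -1.51 (edgeR adjusted p = 0.0427), and not without INTACT 3 and ORX 6 together, at -1.38 (edgeR adjusted p = 0.0597). Samd8, a relative of the sphingomyelin synthases that makes ceramide phosphoethanolamine, was at -0.38 ± 0.16 (edgeR adjusted p = 0.177), and was called without both libraries, at -0.42 (edgeR adjusted p = 0.0319). Sgms1, the more abundant sphingomyelin synthase, was at 0.01 ± 0.21, and Col4a3bp, which carries ceramide to the Golgi apparatus, at 0.05 ± 0.18. Neither passed.

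Among the 11 tested genes of ganglioside and globoside synthesis, 1 fell and 10 did not pass. St8sia5, a sialyltransferase of complex gangliosides, was at 0.718, 0.519, 1.70, 1.07, 1.68 and 0.905 CPM in ORX 1 to 6, and at 4.01, 3.99, 5.37, 6.36 and 5.08 CPM in INTACT 1 to 5. The groups were well apart, with a log2 fold change of -2.17 ± 0.31 (edgeR adjusted p = 0.00154), and the call remained in all 19 alternatives. St3gal5, which makes the ganglioside GM3 and was the most abundant gene of this list, averaged 223 ± 33.3 CPM in ORX and 302 ± 51.1 CPM in INTACT and was not called (log2 -0.44 ± 0.16; edgeR adjusted p = 0.112). Without INTACT 3 and ORX 6 together St3gal5 was called, at -0.57 (edgeR adjusted p = 0.042).

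Of the 28 tested genes of sphingolipid breakdown and sphingosine-1-phosphate metabolism, 1 rose and 27 did not pass. Smpdl3b, a membrane-anchored phosphodiesterase related to acid sphingomyelinase, was at 18.7, 15.8, 8.92, 15.6, 17.1 and 11.6 CPM in ORX 1 to 6, and at 1.39, 3.31, 3.91, 2.09 and 2.58 CPM in INTACT 1 to 5. The lowest ORX library, ORX 3, was above the highest INTACT library. The log2 fold change was 2.46 ± 0.29 (edgeR adjusted p = 0.00036), and the call remained in all 19 alternatives. The acid sphingomyelinase gene Smpd1 was at -0.14 ± 0.15 and the acid ceramidase gene Asah1 at -0.04 ± 0.10, and neither passed. Sphk1, a kinase that makes sphingosine-1-phosphate, was at -1.64 ± 0.60 (edgeR adjusted p = 0.125), with an INTACT range of 1.76 to 23.5 CPM. Without INTACT 3 and ORX 6 together Sphk1 was called, at -2.27 (edgeR adjusted p = 0.0374). Sgpp1, a phosphatase of sphingosine-1-phosphate, was at 0.57 ± 0.22 (edgeR adjusted p = 0.145), and was called without both libraries, at 0.53 (edgeR adjusted p = 0.0418).

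All 8 tested genes of sphingosine-1-phosphate receptors and transporters had a log2 fold change below 0, with a median of -0.57, beside 0.01 over all genes, and 1 of them passed. S1pr3, a receptor for sphingosine-1-phosphate, ranged from 15.7 to 21.9 CPM in ORX (median 17.9) and was at 32.4, 72.0, 25.0, 23.3 and 27.7 CPM in INTACT 1 to 5. The groups did not overlap, and INTACT 2 was far above the rest. The log2 fold change was -0.99 ± 0.27 (edgeR adjusted p = 0.0434). The call of S1pr3 ended without any ORX library and without INTACT 1, 2 or 5 (log2 -1.07 to -0.58, edgeR adjusted p up to 0.0962), the smallest change being that without INTACT 2. Endothelial markers, which belong to a cell type that carries such receptors, summed to 857 to 1049 CPM in ORX and 898 to 1370.0 CPM in INTACT. Of these 10 markers edgeR called 0, with 5 at an unadjusted p under 0.05 and 2 called by DESeq2 and by limma voom, and 8 were below 0. The most abundant, Plvap and Kdr, were at -0.03 ± 0.22 and -0.52 ± 0.21. Their part in the receptor values was not tested. Of 24 genes that supply very long fatty acids, edgeR called 0, with 9 at an unadjusted p under 0.05. DESeq2 called 2 of them, Hacd2 and Phyh, and limma voom 3. Hacd2, a dehydratase of fatty acid elongation, was at -0.82 ± 0.25 (edgeR adjusted p = 0.0736) and was called without INTACT 4, at -0.97 (edgeR adjusted p = 0.0358). Phyh, a hydroxylase of branched fatty acids, was at 0.37 ± 0.13 (edgeR adjusted p = 0.125).

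Levels of the 10 genes were compared with each other per kilobase of merged exon. In ORX the order was Cers2, Degs1, Cers5, Sptlc2, Ugcg, Fa2h, Cers4, Cers6, Degs2 and Ugt8a, and in INTACT Ugcg stood above Sptlc2 and Fa2h stood eighth, after Cers6. Fa2h was at 7.49 ± 4.49 CPM per kilobase in ORX and 0.035 ± 0.023 in INTACT. The ORX mean of Ugcg, 9.27 ± 1.26 CPM per kilobase, lay within the wide SD of Fa2h, but the mean of Fa2h lay outside the SD of Ugcg. Ugcg was at 14.7 ± 3.05 CPM per kilobase in INTACT. In INTACT, Sptlc2 at 13.3 ± 1.97 CPM per kilobase and Ugcg did not differ beyond their spread. In ORX, Sptlc2 was at 20.4 ± 3.32 CPM per kilobase, and its lowest library was above the highest library of Ugcg.

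The 5 genes whose pattern over the 11 libraries was most like that of Fa2h were Car8, Serpinb1a, Ajap1, Ugt1a1 and Pik3c2g. Likeness was the root mean square difference of log2 CPM after each gene was centred on its own mean, over 10849 genes with a mean of at least 5 CPM and a gene name other than a model number. It was 0.74 for Car8, a carbonic anhydrase-related gene, 0.90 for Serpinb1a, a protease inhibitor, 0.92 for Ajap1, a gene of cell junctions, 0.94 for Ugt1a1, a glucuronosyltransferase, and 0.99 for Pik3c2g. Pik3c2g, a lipid kinase gene, marks the X-zone, an inner cortical layer of the mouse adrenal that regresses in males at puberty. It had 405, 155, 42.1, 213, 162 and 60.02 CPM in ORX 1 to 6 and at most 0.948 CPM in INTACT. Akr1c18, the enzyme gene that defines the X-zone, had 2392, 1267, 746, 1686, 1399.8 and 821 CPM in ORX 1 to 6 and at most 6.12 CPM in INTACT. The root mean square difference from Fa2h was 1.78 for Akr1c18 and 2.58 for the X-zone marker Thrb. Both were thus less like Fa2h than the 5 genes named. Among the ORX libraries, Fa2h, Akr1c18 and Pik3c2g were highest in ORX 1, then ORX 4, ORX 5 and ORX 2, and lowest in ORX 3 and ORX 6. The other genes had other orders. Thrb, the third X-zone marker, and Car8 were highest in ORX 1, but ORX 2 lay above ORX 5 for both. Serpinb1a was highest in ORX 5, Ajap1 in ORX 2 and Ugt1a1 in ORX 4. These likenesses are set mainly by the difference between the groups and are given as a description.

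**Figure D4:**
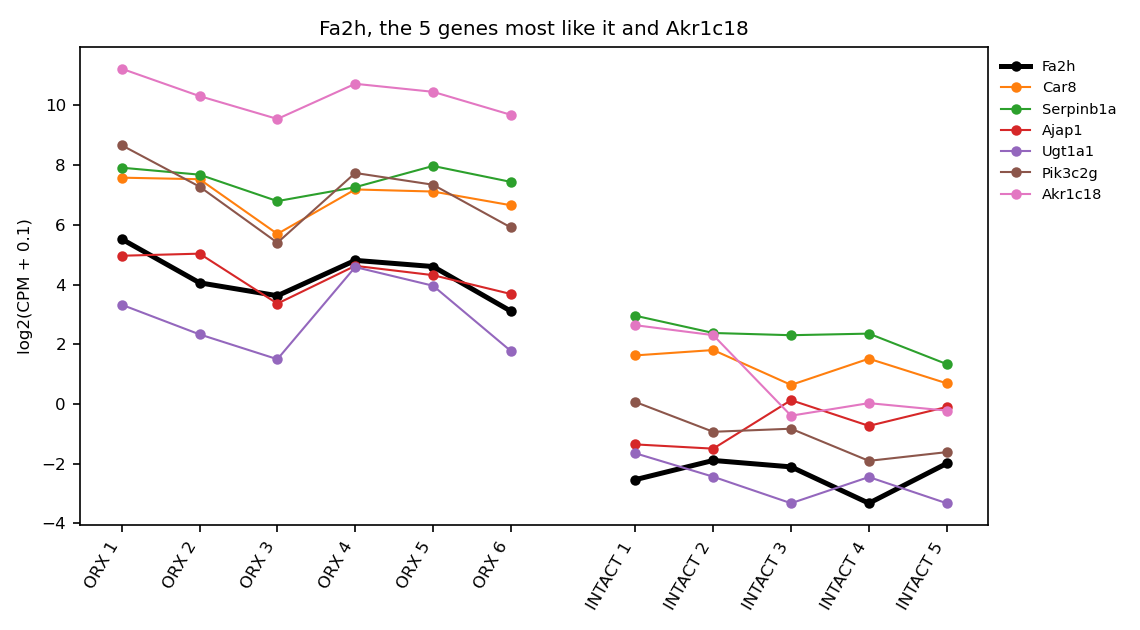
Level of Fa2h (black), the 5 genes most like it and Akr1c18 in each library (vertical axis, log2 of CPM plus 0.1), with ORX libraries left and INTACT libraries right; lines join libraries of a group for reading only. Fa2h, Pik3c2g and Akr1c18 are highest in ORX 1, at 45.8, 405 and 2392 CPM, and all 7 genes are far lower in INTACT.

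Markers of other cells that use Fa2h were checked beside it. Of 15 tested markers of myelin and Schwann cells, 0 rose, 1 fell and 14 did not pass, and their summed level was 352 to 416 CPM in ORX and 316 to 373 CPM in INTACT. The median log2 fold change was -0.50, with 9 of 15 below 0, so that the median and the sum differ in direction. Most of the sum came from Pmp22, at 202 ± 25.7 CPM in ORX and 160.1 ± 24.0 CPM in INTACT, and Cnp, at 66.9 ± 15.5 CPM in ORX and 59.9 ± 15.8 CPM in INTACT, which other cells also express and which did not pass. Mog was the 1 gene of this list with no count in any library. The marker that fell was Gfra3, a receptor of glia and neurons (log2 -0.86 ± 0.23, edgeR adjusted p = 0.043). Of 6 tested markers of skin and sebaceous glands, 1 rose and 5 did not pass. The gene that rose was Sbsn, suprabasin (log2 2.26 ± 0.36, edgeR adjusted p = 0.00303), at 170.4 to 407 CPM in ORX and 20.5 to 94.0 CPM in INTACT. Sbsn made up most of the list's sum, 182 to 418 CPM in ORX and 31.4 to 106.7 CPM in INTACT. Krt10 averaged 5.46 CPM in ORX and 4.18 CPM in INTACT. Krt15 and Dsg1a were the 2 genes of this list with no count in any library. Of 13 kidney markers 1, Aqp1, which endothelium also expresses, was tested, and it was at -0.77 ± 0.27 (edgeR adjusted p = 0.105); Umod, Slc12a3 and Nphs1 had no count.

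The labelled tissue was checked against its own markers. Cortex markers were abundant in all libraries, summing to 62448 to 95633 CPM in ORX and 35680 to 80281 CPM in INTACT, and 3 of 10, Hsd3b1, Mc2r and Cyp21a1, rose. Star, which brings cholesterol into mitochondria, was the most abundant of them and did not pass (log2 0.06 ± 0.28, edgeR adjusted p = 0.93). Of 16 medulla markers edgeR called 0 higher and 3 lower, and 13 did not pass. Of the 16, 14 were below 0, with a median log2 fold change of -0.53. In edgeR 10 had an unadjusted p under 0.05, and DESeq2 called 7 and limma voom 10. The 3 that edgeR called were Slc18a2, Ret and Npy, at -1.44, -1.77 and -1.94 on the log2 scale. The most abundant, Chgb and Chga, were at -0.82 ± 0.31 and -0.12 ± 0.25 and did not pass. All 16 medulla markers together summed to 7654 to 18759 CPM in ORX and 13588 to 33047 CPM in INTACT. Of 12 fat markers edgeR called 0, with 2 at an unadjusted p under 0.05, 1 called by DESeq2 and 2 by limma voom. The most abundant, Fabp4 and Cfd, were at -0.34 ± 0.36 and -0.41 ± 0.56. All 12 were below 0 (median -0.64), and they summed to 3824 to 16109 CPM in ORX and 5557 to 17822 CPM in INTACT. All 3 X-zone markers, Akr1c18, Pik3c2g and Thrb, rose. The part of a different mix of cells in the values of Ugcg, B4galt5, B4galt6, St8sia5, Smpdl3b and Sptlc2 was not tested.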

How the data were processed

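Total RNA of adrenal glands was extracted with TRIsure and a column kit and made into Illumina TruSeq libraries, per the labels' protocols, which name both a stranded and an unstranded guide, so whether strand was kept is not settled. The table deposited by the authors holds whole-number read counts for each gene symbol, with no normalization visible in them. Per the submitters' processing notes, Subread 1.5.1, bcl2fastq 1.8.4 and mm10 were used; no source here gives their roles, the annotation or the handling of shared reads. It came in 2 identical copies, of which the first was read.

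Genes were kept by filterByExpr (minimum count 10, minimum total 15), given TMM factors, and fitted without covariates in edgeR 4.0.16 (R 4.3.3; glmQLFit, glmQLFTest), with Benjamini-Hochberg adjustment over 14139 genes at 0.05. Each SE is the absolute log2 fold change over the square root of F. The test was checked on simulated data. Alternatives included DESeq2 1.42.0 and limma 3.58.1. P-values set the difference between the groups against the spread between samples, which may be technical. The labels give no batch.

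The 10 genes, the 13 other lists and the naming rule were chosen with earlier results of these data known. Named were the 10 genes, up to 6 called genes of each list, the 2 most abundant markers of each marker list (for kidney 1 of them, Miox, was too low to test) and the 5 genes most like Fa2h; further genes that did not pass, and those of low or no count, were picked after their values were seen. Of 200 listed symbols 199 were in the table, 13 under an older symbol matched through RefSeq synonyms. Positions, lengths and overlaps are from GENCODE M21 on GRCm38 (mm10). Cers2, Cers4 and Degs2 overlap antisense genes, as do St8sia5 and S1pr3, and may hold their reads. Ugt1a1 shares exons with its neighbours, and Cers1 shares exon bases with Gdf1 on the same strand.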

Additional observations from a re-analysis of the deposited data

Results flagged for a closer look

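In 3 cases 1 library lay far from the rest of its group on the log2 scale, among 36 groups examined (the 8 tested genes of the 10, the 5 called genes of sphingolipid metabolism and the 5 genes most like Fa2h, each in ORX and INTACT); chance alone gives about 1 in 20. Cers4 in ORX 5 was at 22.0 CPM, against 27.5 to 30.4 CPM in the other ORX libraries (gap divided by range 0.689). Cers6 in ORX 6 was at 0.377 CPM, against 2.0 to 3.96 CPM in the other ORX libraries (0.685), and ORX 6 is the library with low levels of long transcripts. Sptlc2 in ORX 3 was at 116 CPM, against 161 to 191 CPM in the other ORX libraries (0.653). ORX 3 is the ORX library with the lowest summed cortex markers and the highest summed fat markers, whose part in this value was not tested.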

How the results depend on the processing

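Alternatives were other scalings, filters and tools, the sample number as a block, each library left out, and INTACT 3 and ORX 6 left out together. St8sia5 and Smpdl3b kept their direction and call in all 19. The number of genes called, 878, was 1721 with DESeq2, 2056 with limma voom and 416 with the block, and 408 to 1280 when 1 library was left out. Of the 10 genes 3 were called, and 1 to 3 when 1 library was left out. Of the other genes of sphingolipid metabolism 5 were called, 11 with DESeq2, 14 with limma voom, 9 without INTACT 3 and ORX 6 together, and 2 to 9 when 1 library was left out. Of the marker genes 11 were called, 21 with DESeq2, 25 with limma voom, 17 without INTACT 3 and ORX 6 together, and 7 to 20 when 1 library was left out. The cause of these shifts was not tested. Log2 fold changes turned sign for Cers2 without INTACT 3 and ORX 6 together (-0.00455) and for Cers4 without INTACT 5 (-0.00452, and -0.00452 to 0.194 over the libraries left out). With library totals S1pr3 was not called. The sample numbers gave no clear pairing of the libraries: correlations of same-numbered deviations from the group means ran from -0.276 to 0.182 over the 5 shared numbers. The INTACT library of highest correlation had the same number for ORX 4 and ORX 5, and another number for ORX 1, 2 and 3. ORX 6, whose number has no partner, adds nothing to the blocked fit. With the block, Ugcg, B4galt5, B4galt6 and S1pr3 were not called. Median shifts of all genes under other scalings stayed below 0.1 (log2). Fa2h in INTACT and Degs2 and Ugt8a in both groups lie near the limit of detection at this depth.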
